A study of Mus musculus with 14 samples.

Results

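The Hox genes of the mouse lie in 4 clusters, and all 39 gene symbols made of Hox, a cluster letter from a to d and a number were taken, from 24984 genes in each of 2 count tables. Both tables held the same 39, with 11 in the Hoxa, 10 in the Hoxb, 9 in the Hoxc and 9 in the Hoxd cluster. A Hox gene was counted as detected at 1 CPM or more, CPM being the count scaled by library size, in at least 1 of 2 libraries, or at least 3 of 5 libraries, of a group. By that rule 8 of 39 were detected in the first table and 4 of 39 in the second, and those 4 were among the 8.

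Hox genes encode homeodomain transcription factors that give cells along the body axis their positional identity. Genes of the same number in different clusters are paralogs, and number follows position along the cluster, so low numbers are anterior and high numbers posterior. Polycomb complexes hold Hox clusters silent outside their domains, and CBX2, a chromodomain subunit of the Polycomb complex PRC1, is known from mutant mice for shifts of axial identity and for its role in testis development.

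The cells were c-KIT(+) differentiating spermatogonia, male germ cells on their way to meiosis, sorted by flow cytometry from testes of C57BL/6J mice. In the deletion experiment, 2 mice of genotype Rosa26-CreERT2; Cbx2 Flox/Δ received tamoxifen, as 3 daily intraperitoneal injections of 200 µL at 20 mg/mL, and are called deleted. Their 2 controls, of genotype Rosa26-CreERT2; Cbx2 Flox/+, received corn oil, so genotype and drug differed together and cannot be told apart. All 4 mice carried CreERT2, and its Rosa26 promoter is active in most cell types. In the 23KRA experiment, 5 mice homozygous for Cbx2 23KRA, whose KR-to-A mutations replace lysines and arginines by alanine in the CaPS domain, were compared with 5 Cbx2 +/+ mice, with no treatment named in the labels. The labels give no ages. Each library was taken as 1 animal, so a p-value reflects variation among animals and sample preparation at once.

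The deletion libraries held 28169990 to 31166500 counts and 19822 to 19976 genes with a count, and 3 counts equalled 0.0953 to 0.106 CPM. The 23KRA libraries, made with another kit, held 14562564 to 19814511 counts and 14958 to 17330 genes, and 3 counts equalled 0.148 to 0.208 CPM. Wild type 2 and 3 had the fewest genes, 14958 and 15258, in a run without a break up to 16115, and 3 libraries lay above it at 17067 to 17330. The 23KRA results are also given without wild type 2 and 3. Counts of Cbx2 itself averaged 95.8 ± 2.67 CPM in the 2 control and 82.5 ± 5.66 CPM in the 2 deleted libraries (SD), and by edgeR the log2 difference of -0.21 (SE 0.12) had an adjusted p of 0.971. With the 23KRA allele they averaged 64.1 ± 17.4 CPM, and 73.0 ± 12.6 CPM without it (SD over 5 libraries each), a log2 difference of -0.19 (SE 0.16) that edgeR gave an adjusted p of 1.00. The labels do not say which exons were floxed, so the count over the whole gene does not check the deletion. In bulk RNA, fewer cells of a type and less RNA per cell cannot be told apart.

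Hoxa4 and Hoxd8, the members with the highest mean CPM in both experiments, are shown with same-numbered paralogs across the homeobox. These are the 180 bases for the homeodomain, found in all 39 members. Reads could be shared between members here or elsewhere in the transcripts. Sequences were read from GENCODE M21 transcripts of GRCm38. Capitals in the Hoxc4 sequence mark bases that differ from Hoxa4, and each is given in the direction of its transcript.
Hoxa4: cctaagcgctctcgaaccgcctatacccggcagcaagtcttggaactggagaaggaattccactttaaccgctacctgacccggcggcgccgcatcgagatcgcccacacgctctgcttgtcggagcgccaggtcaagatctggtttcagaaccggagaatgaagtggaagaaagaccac
Hoxc4: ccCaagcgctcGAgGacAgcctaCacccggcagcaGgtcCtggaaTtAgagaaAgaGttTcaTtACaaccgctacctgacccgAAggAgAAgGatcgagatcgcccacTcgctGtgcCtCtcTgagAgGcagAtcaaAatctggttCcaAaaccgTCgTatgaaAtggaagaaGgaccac
Hoxc4 differed from Hoxa4 at 38 bases, while 57 of 60 homeodomain residues were the same. The other paralogs of this number, Hoxb4 and Hoxd4, not shown, were closer in bases. Each had 149 of 180 bases the same as Hoxa4, with 56 and 59 of 60 residues the same. Hoxa4 shared no exact run of 25 bases or more with another member anywhere in its transcripts. Hoxb7 shared runs of at least 30 bases with Hoxb6, Hoxa5 and Hoxa6, and at least 25 with Hoxb8 and Hoxa7. Of these, Hoxb6 and Hoxb8 are its neighbours.

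The homeobox of Hoxd8 is set beside those of Hoxb8 and Hoxc8 in the same way, with capitals for the bases that differ from Hoxd8.
Hoxd8: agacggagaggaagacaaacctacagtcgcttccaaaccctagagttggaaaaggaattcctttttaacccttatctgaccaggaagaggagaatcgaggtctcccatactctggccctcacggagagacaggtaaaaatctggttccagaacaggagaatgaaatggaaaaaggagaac
Hoxb8: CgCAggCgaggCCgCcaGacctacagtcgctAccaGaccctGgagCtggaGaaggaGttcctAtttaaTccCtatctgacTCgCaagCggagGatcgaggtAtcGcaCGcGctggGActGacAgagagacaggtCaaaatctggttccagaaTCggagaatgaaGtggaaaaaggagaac
Hoxc8: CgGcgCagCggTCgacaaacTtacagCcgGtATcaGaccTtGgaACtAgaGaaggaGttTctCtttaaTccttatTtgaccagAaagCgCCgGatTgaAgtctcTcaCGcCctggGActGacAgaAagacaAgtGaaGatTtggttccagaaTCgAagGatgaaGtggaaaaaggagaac
Hoxb8 differed from Hoxd8 at 35 bases and Hoxc8 at 48, and 57 and 56 of 60 residues were the same. Hoxd8 shared an exact run of at least 30 transcript bases with Hoxb8, while their longest run within the aligned homeoboxes was 17 bases. Over all members, homeobox identity had a median of 80.6% in the 42 pairs with the same number (67.2% to 93.9%) and 60.6% in the 699 pairs with different numbers (46.1% to 88.9%). Among members without overlapping exons, 57 pairs shared an exact run of at least 25 transcript bases, 6 pairs at least 40, 2 pairs at least 50, Hoxb9 with Hoxc9 among them, and 0 pairs at least 60. How the authors treated reads that map to several places is not given in the sources used here, so counts of genes with such runs are less certain.

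Detected Hox genes were few beside the rest of the transcriptome. In the deletion experiment 8 of 39 (20.5%) were detected, against 60.7% of all 24984 genes under the same rule, and in the 23KRA experiment 4 of 39 (10.3%) against 55.5%. Of the 8, 7 are described here: Hoxa3 and Hoxa4 of the Hoxa cluster, Hoxb7, Hoxb9 and Hoxb13 of the Hoxb cluster, Hoxc9 of the Hoxc cluster, and Hoxd8 of the Hoxd cluster. The 4 of the 23KRA experiment were Hoxa3, Hoxa4, Hoxb7 and Hoxd8, with none from the Hoxc cluster. They made up 50% of the deletion list and 100% of their own, and 31 members were detected in neither experiment. The kit, the animals, the depth and the share of libraries that the detection rule required differed between the experiments. Their parts in this gap cannot be told apart. When every library of a group had to reach the threshold, 6 Hox genes were detected in the deletion and 2 in 23KRA. With each 23KRA library left out in turn, a smaller share sufficed in its group, and 4 to 10 were detected.

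By position, detected genes came from every stretch of the clusters in the deletion experiment and, but for Hoxa3, from the centre in the 23KRA experiment. Of the 8 genes numbered 1 to 3, the 23KRA experiment detected 1, Hoxa3. Of the 15 numbered 4 to 8, each experiment detected 3, the same Hoxa4, Hoxb7 and Hoxd8. Of the 16 numbered 9 to 13, the posterior genes, the deletion experiment detected 3 and the 23KRA experiment 0. The genes numbered 4 to 8 held 75.2% of summed Hox CPM in control and 72.0% in deleted libraries, and 67.3% in wild-type and 53.6% in homozygous libraries.

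**Figure D1:**
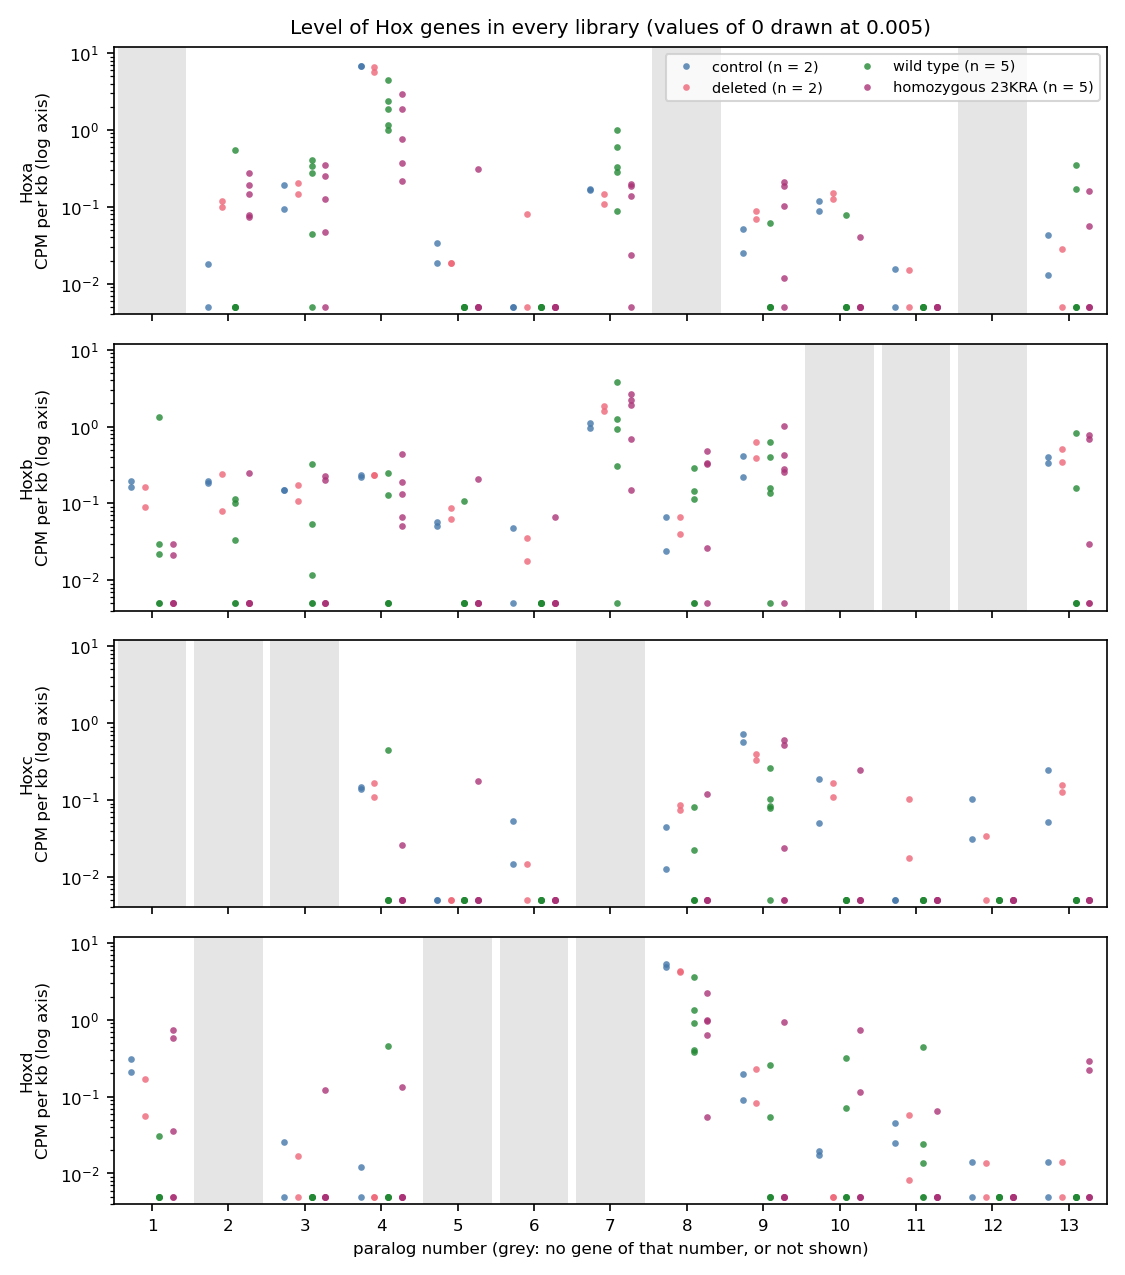
Level of the Hox genes, but for 1 not shown, in each of the 14 libraries, in CPM per kilobase of exon on a log axis, by cluster (panels) and paralog number (x axis), 1 point per library, with values of 0 drawn at the bottom and grey columns where a cluster has no gene of that number or it is not shown. Hoxa4 and Hoxd8 lie above every other Hox gene in the control and deleted libraries, and most other points lie below 1 CPM per kilobase.

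Some groups alone met the detection rule. Control libraries met it for 7 genes, without Hoxb13, and deleted libraries for 7, without Hoxc9. Wild-type libraries met it for 4, and homozygous libraries for 3, without Hoxa3. The 31 undetected genes of the deletion experiment reached at most 0.616 CPM as a mean and 0.843 CPM in a single library. Of the 35 undetected genes of the 23KRA experiment, 16 reached 1 CPM in some library.

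Zeros were far more frequent in the 23KRA libraries. Of the 156 Hox values of the deletion experiment, 27 (17.3%) were 0, 25 genes had counts in every library, and Hoxc5 had none. Of the 390 values of the 23KRA experiment, 239 (61.3%) were 0, and Hoxa4 and Hoxd8 were the only members with counts in every library. Hoxa6, Hoxa11, Hoxc6, Hoxc11, Hoxc12, Hoxc13 and Hoxd12 had no count in any of the 10. A count of 0 allows up to 3 counts, the CPM values given above per library, and covers counting error only.

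Each of the most abundant members stood well above the neighbouring Hox genes in its cluster. Hoxa4, on chromosome 6 at 52189671 to 52191753 of GRCm38 (minus strand), lies inside the annotated span of Hoxa3 but shares no exon with another gene of the tables. In the deletion experiment it had 1201 counts over all libraries against 5 for Hoxa5, 10001 bases away, and per kilobase of exon the ratio was 283 (exact 95% counting interval 121 to 873). Against Hoxa3, with 112 counts, the ratio per kilobase was 40.5 (33.3 to 49.6). Across the 23KRA libraries Hoxa4 had 457 counts, 44.8 times Hoxa5 per kilobase (25.4 to 87.4), whose 12 counts all came from 1 library. Against Hoxa3 the ratio there was 9.63 (8.09 to 11.5).

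Hoxd8, on chromosome 2 at 74704615 to 74707933 (plus strand), likewise stood between Hox genes with few counts. It had 1504 counts in the deletion experiment against 37 for Hoxd9, 4407 bases away, a ratio per kilobase of 31.6 (22.9 to 45.1). On its other side, at 3994 bases, Hoxd3 had 5 counts, and the ratio per kilobase was 459 (196 to 1417). Exons of Hoxd3 share 388 bases with Hoxd4 and 347 with the antisense gene Hoxd3os1, so the counts of Hoxd3 are less certain. Hoxd3os1 also spans Hoxd8 without sharing its exons, and was itself detected in the deletion experiment. Across the 23KRA libraries the ratios were 8.82 to Hoxd9 (6.56 to 12.1) and 92.3 to Hoxd3 (48.3 to 203).

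Hoxb7, on chromosome 11 at 96286623 to 96290162 (plus strand), was 28.3 times Hoxb8 per kilobase in the deletion experiment (16.8 to 51.4), with 249 against 15 counts at a distance of 1308 bases. Hoxb6, 2314 bases away, had 6 counts there. Across the 23KRA libraries Hoxb7 was 7.90 times Hoxb8 per kilobase (6.17 to 10.2). The neighbours of Hoxd8 and Hoxb7 lay a few kilobases away and those of Hoxa4 farther off or around it. All 3 genes were chosen for their high CPM, so these ratios are a description and no test. Counts were summed over libraries, and the intervals cover counting error only, not the spread between libraries.

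On the scale of all genes these levels were modest. Hoxa4 was at 6.44 CPM per kilobase over the deletion libraries, above 64.9% of the 21063 genes with a count and an annotated length. Hoxd8 followed at 4.69 CPM per kilobase (above 60%) and Hoxb7 at 1.39 (above 45%). Hoxc9, Hoxb9, Hoxb13 and Hoxa3 ran from 0.509 CPM per kilobase for Hoxc9 (above 35%) down to 0.158 for Hoxa3 (above 23.7%). Over the 23KRA libraries Hoxa4 was at 1.70, Hoxb7 at 1.4, Hoxd8 at 1.15 and Hoxa3 at 0.184 CPM per kilobase, above 46.8%, 44.4%, 42.3% and 22.9% of 19616 genes. Per length Hoxa4 led in both experiments, although Hoxd8, with the longer exons, had the higher CPM.

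Libraries labelled deleted were set against those of the mock-injected controls to ask whether Hox levels differ between these groups. No Hox gene passed the test: of 19 members tested, 0 were called by edgeR at an adjusted p under 0.05, against 0.012% of the 16725 genes tested (2 genes). At an unadjusted p under 0.05 there were 2 members, Hoxb7 and Hoxc9, where 4.74% of all tested genes met that threshold. DESeq2 and limma-voom each called 1 gene in the whole table and 0 Hox genes. At an unadjusted p under 0.05 they had 397 of 21404 and 801 of 16725 genes, of which 0 and 2 were Hox genes. The 20 members that were not tested had counts too low for the filter.

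The most abundant member, Hoxd8, a central gene of the Hoxd cluster, was at 14.7 and 13.3 CPM in control and 11.6 and 11.9 CPM in deleted libraries. Both deleted values lay below both controls, with means of 14 ± 1.05 and 11.7 ± 0.208 CPM (SD, n = 2 each). Its log2 fold change was -0.25 (SE 0.16; 95% interval -0.58 to 0.07; edgeR adjusted p = 0.971). Hoxa4, which helps to pattern cervical vertebrae, was at 10.8 and 10.7 CPM in control and 9.10 and 10.4 CPM in deleted libraries. The deleted values were again both below the controls, the second by little, and the log2 fold change was -0.14 (SE 0.17; 95% interval -0.49 to 0.20; edgeR adjusted p = 0.974). An exact two-sided permutation test gave p = 0.333 for each gene, the smallest that 2 against 2 libraries allow.

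Hoxb7, a trunk gene, was at 1.74 and 1.46 CPM in control and 2.49 and 2.89 CPM in deleted libraries, from 46 to 83 counts a library. The log2 fold change was 0.75 (SE 0.29; 95% interval 0.15 to 1.36; edgeR adjusted p = 0.971). Both deleted values lay above both controls, and exons of Hoxb7 overlap no other gene of the tables.

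Hoxc9, a posterior gene expressed in thoracic segments and on chromosome 15 at 102976439 to 102985099 (plus strand), was at 1.38 and 1.78 CPM in control and 0.808 and 0.976 CPM in deleted libraries. It was the 1 detected member of the Hoxc cluster, its deleted values lay below both controls, and the log2 fold change was -0.83 (SE 0.38; 95% interval -1.60 to -0.05; edgeR adjusted p = 0.971). Hoxb9, Hoxa3 and Hoxb13 overlapped between groups. Hoxb9 averaged 0.817 ± 0.347 CPM in control and 1.31 ± 0.428 CPM in deleted libraries. Hoxa3 averaged 0.855 ± 0.408 and 1.05 ± 0.242 CPM, and Hoxb13, the prostate and tail gene at the far end of its cluster, 0.808 ± 0.109 and 0.946 ± 0.253 CPM (SD, n = 2 each). The direction of 2 of them rested on a single library: without control 1 the log2 fold change of Hoxa3 went from 0.28 to -0.11, and without deleted 1 that of Hoxb13 went from 0.23 to -0.068.

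**Figure D2:**
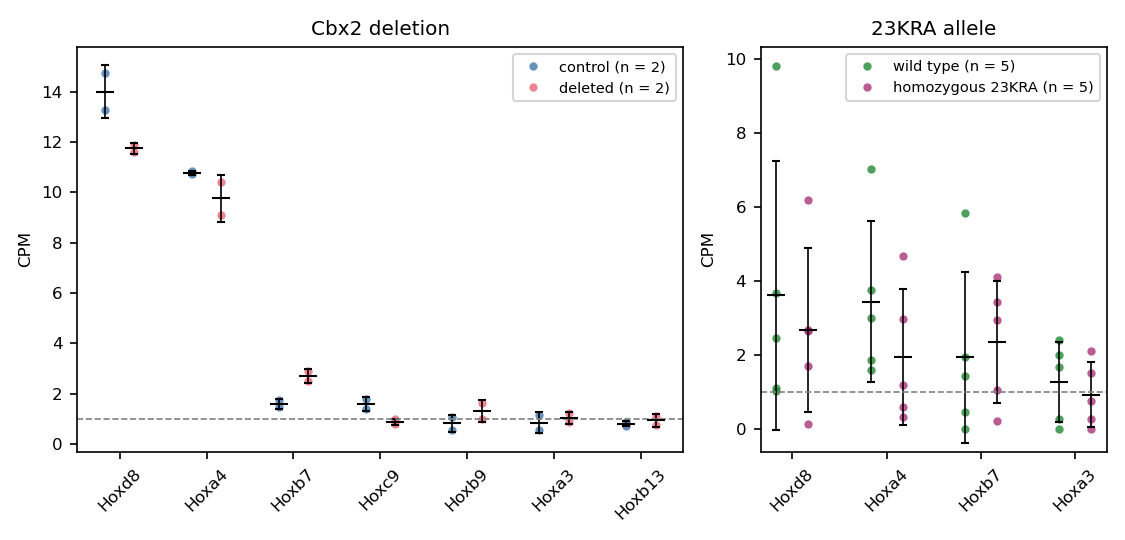
CPM of the 7 described Hox genes of the deletion experiment (left) and the 4 of the 23KRA experiment (right) in each library (points), with mean (long bar) and SD (short bars) of each group; the dashed line marks 1 CPM. Hoxd8 and Hoxa4 lie between 9.10 and 14.7 CPM in the deletion libraries, and the wild-type and homozygous points overlap for all 4 genes.

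As a group the tested members showed no common direction. Of the 19, 9 had a log2 fold change above 0 and 10 below, with a median of -0.028, beside -0.0044 over all 16725 genes. Of the 8 detected members, 5 were above 0 and 3 below. Groups did not overlap for 9 of the 19, with 4 higher in deleted libraries (Hoxa9, Hoxa10 and Hoxb7 among them) and 5 lower (Hoxa4, Hoxa7, Hoxc9, Hoxd1 and Hoxd8), where 33.1% of all tested genes did not overlap (15.6% higher and 17.5% lower). The extremes were undetected genes, picked out after their values were seen, Hoxd1 at -1.19 and Hoxa9 at 1.00. With a median SE of 0.50 for the tested Hox genes and 0.15 for all tested genes, the intervals left room for sizeable differences in either direction. Only for Hoxa4 and Hoxd8 did the 95% interval stay within 1 log2 unit of 0.

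**Figure D3:**
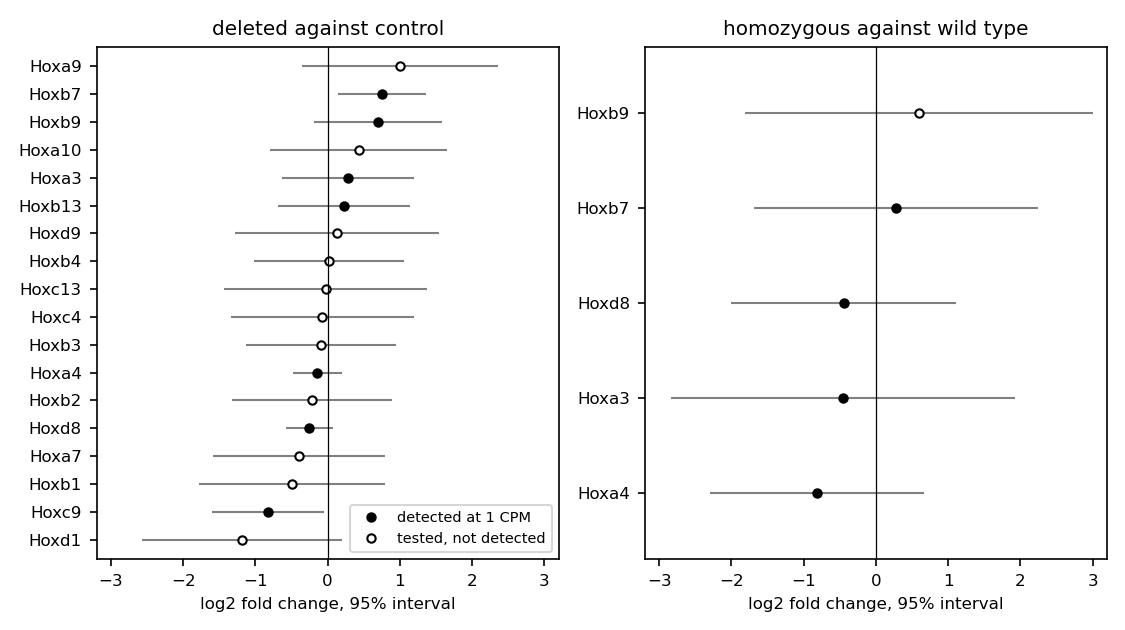
Log2 fold change of tested Hox genes with its 95% interval (edgeR), deleted against control on the left (18 of the 19 tested) and homozygous 23KRA against wild type on the right (5 genes); filled points are detected members and open points tested but undetected ones. Intervals are narrowest for Hoxd8 and Hoxa4 on the left, and all 5 on the right cross 0.

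The homozygous 23KRA libraries were set against wild type to ask the same of an allele that changes the CaPS domain and leaves the gene in place. No Hox gene passed here either: of 5 members tested, 0 were called by edgeR, against 0% of the 14208 genes tested (0 genes), and 0 had an unadjusted p under 0.05, against 3.04% of all tested genes. DESeq2 and limma-voom also called 0 genes, with 720 of 19513 and 537 of 14208 at an unadjusted p under 0.05. Of these, DESeq2, which was run on more genes, had 2 undetected Hox genes, Hoxa7 and Hoxd1, named after their values were seen, and limma-voom had 0. The 5 were the 4 detected genes and Hoxb9, and the groups overlapped for all 5, where 0.711% of all tested genes did not overlap (0.436% higher and 0.274% lower in homozygous libraries).

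Hoxd8 was at 9.82, 1.11, 1.03, 3.70 and 2.48 CPM in wild type 1 to 5 and at 0.148, 1.71, 2.69, 2.65 and 6.19 CPM in homozygous 1 to 5. Wild type 1 was the highest library and homozygous 1, with 3 counts, the lowest, and the groups overlapped. The means were 3.63 ± 3.63 and 2.68 ± 2.22 CPM (SD, n = 5 each), with a log2 fold change of -0.44 (SE 0.75; 95% interval -2.0 to 1.11). It turned to 0.36 without wild type 1, so its direction rested on that library. An exact two-sided permutation test gave p = 0.659 for Hoxd8, where the smallest possible was 0.00794.

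Hoxa4 was at 3.02, 1.59, 1.87, 3.76 and 7.04 CPM in wild type 1 to 5 and at 4.67, 0.594, 0.345, 2.98 and 1.20 CPM in homozygous 1 to 5. Homozygous 2, 3 and 5 lay below every wild-type library and homozygous 1 and 4 within the wild-type range. The log2 fold change was -0.81 (SE 0.71; 95% interval -2.29 to 0.67; edgeR adjusted p = 1.00), and the exact two-sided permutation p was 0.183. It kept its sign without each single library, between -1.43 and -0.38.

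Hoxb7 was at 1.96, 0, 5.85, 1.44 and 0.469 CPM in wild type 1 to 5 and at 4.13, 3.43, 2.96, 1.06 and 0.229 CPM in homozygous 1 to 5. Both extremes were wild-type libraries, and the log2 fold change of 0.28 (SE 0.95; 95% interval -1.69 to 2.25) became -0.039 without wild type 2 and -0.03 without homozygous 1. Hoxa3 was at 2.01, 2.43, 0, 1.68 and 0.268 CPM in wild type 1 to 5 and at 0, 2.11, 0.758, 1.52 and 0.287 CPM in homozygous 1 to 5. Each group held a library at 0, and its log2 fold change was -0.46 (SE 1.15; 95% interval -2.84 to 1.93). Exons of Hoxa3 share 503 bases with Hoxaas2 and 297 with Hoxaas3, both antisense, so its counts may include theirs. Across the 23KRA libraries Hoxaas2 had 9 counts, all in 1 library, and Hoxaas3 had 0. Their part in the Hoxa3 counts was not tested.

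Without wild type 2 and 3, a choice made after the data had been seen, the log2 fold changes were -1.0 for Hoxd8, -1.22 for Hoxa4, 0.86 for Hoxb7 and -0.51 for Hoxa3. All 4 kept their direction, 0 genes were called by edgeR in the whole table, and 4 Hox genes were again detected. The median over the 5 tested members was -0.44, with 2 above 0 and 3 below, beside 0.0034 over all 14208 genes. That median turned to 0.28 without wild type 1, was -0.095 without wild type 2 and was -0.077 with the replicate number as a block. No interval excluded a change of 1 log2 unit in the direction of its estimate, and the edgeR adjusted p was 1.00 for each of the 5.

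Hox levels varied between 23KRA libraries of the same genotype more than between deletion libraries. The coefficient of variation within groups was 5.88% for Hoxd8 and 6.48% for Hoxa4 in the deletion experiment, where genes within 1.25-fold of their level had medians of 9.55% and 10.1%. It was larger in the 23KRA experiment, 95.5% for Hoxd8, 93.4% for Hoxb7 and 74.5% for Hoxa4, where genes of like level had medians of 56.0%, 65.3% and 58.6%. Hoxd8 there exceeded 98.1% of genes of like level, Hoxb7 90.9% and Hoxa4 83.2%. Genes of like level thus also varied widely, with Hoxd8 and Hoxb7 near the upper end. The choice of these genes followed their level, and no test was made of the spread.

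**Figure D4:**
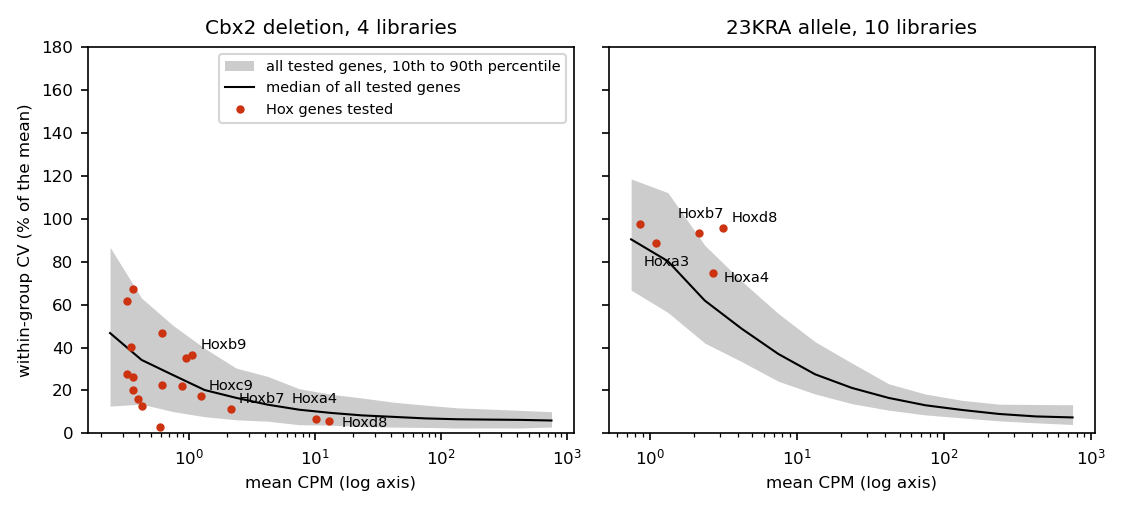
Within-group coefficient of variation of the tested Hox genes, but for 1 not shown (red points, named above 1 CPM) against its mean CPM on a log axis, with the median (line) and the 10th to 90th percentile (grey) of all tested genes, for the deletion experiment (left) and the 23KRA experiment (right). Hoxd8 and Hoxa4 lie below the median line on the left, and all 5 Hox genes lie above it on the right, Hoxd8 and Hoxb7 above the grey band.

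The order of Hox genes was stable across deletion libraries and changed from one 23KRA library to the next. Hoxd8 was the top Hox gene in all 4 deletion libraries. Among the 23KRA libraries it led in wild type 1 and homozygous 5, Hoxa4 in wild type 4 and 5 and homozygous 1 and 4, Hoxb7 in wild type 3 and homozygous 2 and 3, and Hoxa7 in wild type 2. Spearman's rho between libraries over the 39 genes ran from 0.860 to 0.920 in the deletion and from 0.105 to 0.706 in the 23KRA experiment. These values describe genes within libraries and share their zeros. Each deletion library had 6 Hox genes at 1 CPM or more and 30 to 34 with a count, whereas the 23KRA libraries had 4 to 8 and 9 to 20.

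Summed over all 39 genes, Hox counts came to 37.7 ± 1.54 CPM in control and 36.4 ± 1.16 CPM in deleted libraries (SD, n = 2 each), with overlapping ranges for the total and for the Hoxa cluster and no overlap for the Hoxb, Hoxc and Hoxd clusters. The Hoxd sum was 15.1 ± 1.18 against 12.5 ± 0.377 CPM and the Hoxb sum 5.84 ± 0.709 against 7.40 ± 0.461 CPM. The Hoxa sum was 14 ± 0.488 against 14.3 ± 1.06 CPM and the Hoxc sum 2.77 ± 0.141 against 2.24 ± 0.186 CPM. Hoxa4 and Hoxd8 together held 65.9% and 65.5% of Hox CPM in the control libraries and 58.1% and 59.9% in the deleted ones, with no overlap. With 2 libraries in each group, 33.1% of all tested genes did not overlap either, so these sums and shares are a description only.

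In the 23KRA experiment the 39 genes summed to 17 ± 3.63 CPM in wild-type libraries, against 16.6 ± 3.74 CPM in homozygous ones (SD, n = 5 each). The Hoxa sum was 7.14 ± 2.93 against 5.57 ± 2.95 CPM, the Hoxb sum 4.75 ± 2.82 against 5.82 ± 2.70 CPM, and the Hoxd sum 4.59 ± 3.58 against 4.38 ± 3.17 CPM. The Hoxc sum was smallest, 0.543 ± 0.548 against 0.842 ± 0.667 CPM. Each difference between genotypes was smaller than the SD within a genotype, and Hoxa4 with Hoxd8 held 12.8% to 61.7% of Hox CPM by library.

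**Figure D5:**
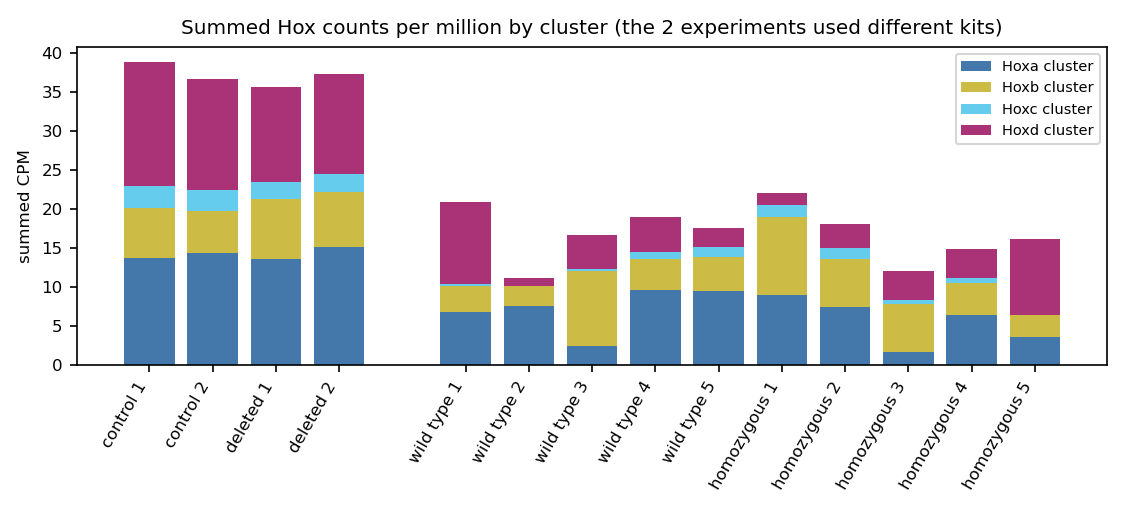
Summed CPM of the Hox genes in each library, stacked by cluster, for the 4 deletion libraries and the 10 libraries of the 23KRA experiment; 1 bar is 1 library. Totals run from 35.6 to 38.8 CPM in the first set and from 11.2 to 22.0 CPM in the second, where the make-up by cluster also changes between libraries of 1 genotype.

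Noncoding genes inside the clusters were a large part of the cluster transcripts in the deletion experiment. Of 18 such genes listed, 4 were detected and 6 tested, and 0 were called by edgeR. Hoxd3os1, antisense to Hoxd3, was at 6.61 ± 0.180 CPM in control and 6.23 ± 0.956 CPM in deleted libraries. Haglr, a long noncoding RNA gene of the Hoxd cluster, was at 5.78 ± 0.362 and 4.25 ± 0.246 CPM (SD, n = 2 each), and its log2 fold change of -0.44 (SE 0.21) was not called. The summed level of the 18 was 16.1 to 16.5 CPM in control and 13.6 to 15.2 CPM in deleted libraries. These did not overlap, where 33.1% of all tested genes taken singly did not overlap. Hoxd3os1 and Haglr thus exceeded every coding Hox gene but Hoxd8 and Hoxa4 in CPM. Among the 23KRA libraries 0 of the 18 were tested, 9 were at 0 throughout, and their summed level ran from 0.386 to 3.12 CPM in wild-type and 1.19 to 5.50 CPM in homozygous libraries.

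Hox proteins bind DNA with TALE homeodomain cofactors of the PBX, MEIS and PKNOX families, and these were present at far higher levels. Of 9 cofactor genes tested in the deletion experiment, 0 were called by edgeR, 2 were above 0 and 7 below, with a median log2 fold change of -0.051. Pbx3 was at 95.6 ± 6.36 CPM in control and 94.5 ± 12.7 CPM in deleted libraries, and Pbx2 at 60.5 ± 0.257 and 58.5 ± 8.52 CPM (SD, n = 2 each). Of the same genes, 7 were tested in the 23KRA experiment, where 0 were called, 2 were above 0 and 5 below, with a median of -0.12. Pbx3 was at 66.6 ± 12.4 and 63.1 ± 5.36 CPM there, and Pbx2 at 50.4 ± 9.86 and 43.8 ± 5.18 CPM (SD, n = 5 each).

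Relatives of the Hox class outside the clusters were mostly below detection. Of 11 listed genes of the Cdx, ParaHox, Evx, Meox and Mnx families, 2 were tested in the deletion experiment, Cdx1 at 0.855 and 0.752 CPM and Meox1 at 0.613 and 0.438 CPM in control and deleted libraries. Cdx1 alone met the detection rule there. In the 23KRA experiment 0 were tested. Of 9 listed coding genes that flank the clusters, Evx1 and Evx2 were neither detected nor tested in either experiment. The other 7 were detected and tested in both and 0 were called by edgeR, with 5 above 0 and 2 below in the deletion (median 0.086) and 2 above and 5 below in 23KRA (median -0.047). Mtx2, next to the Hoxd cluster, averaged 242 CPM in control and 261 CPM in deleted libraries.

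The sorted cells showed germ cell markers at high level and markers of other testis cells at lower levels. Dazl, a germ cell RNA-binding protein gene, averaged 3126 CPM in control and 3468 CPM in deleted libraries. The 10 markers of differentiating spermatogonia summed to 5256 to 5822 CPM in control and 5825 to 6117 CPM in deleted libraries, and to 3149 to 3434 CPM in wild-type and 3113 to 3459 CPM in homozygous libraries. The sums of control and deleted libraries did not overlap, by a margin of a few CPM, where 33.1% of all tested genes taken singly did not overlap. Dazl alone made up most of these sums in control and deleted libraries, and most of the difference between their means. Markers of undifferentiated spermatogonia summed to 395 to 402 CPM in control and 401 to 426 CPM in deleted libraries, and to 349 to 380 CPM and 363 to 411 CPM in wild-type and homozygous ones. Spermatid markers summed to 2567 to 2903 CPM in control and 2228 to 2572 CPM in deleted libraries, led by the protamine gene Prm1 at 1101 and 979 CPM. Among the 23KRA libraries they summed to 255 to 958 CPM in wild-type and 207 to 966 CPM in homozygous libraries.

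In 2 somatic marker lists the summed levels of control and deleted libraries did not overlap, where 33.1% of all tested genes taken singly did not overlap. Hox genes are active in many somatic cells. Among interstitial fibroblast markers, Dcn, a matrix proteoglycan gene, rose from 3.73 to 11.0 CPM (log2 fold change 1.57; edgeR adjusted p = 0.0207), 7 of 7 tested members were above 0, and the sum ran from 12.3 to 14.9 CPM in control and 20.7 to 28.9 CPM in deleted libraries. Among Leydig cell markers, Cyp17a1, an androgen synthesis enzyme gene, fell from 6.07 to 1.66 CPM (log2 fold change -1.86; edgeR adjusted p = 0.00315), 2 of 8 tested members were above 0 and 6 below, and the sum ran from 24.7 to 27.2 CPM in control and 18.9 to 19.9 CPM in deleted libraries. Dcn and Cyp17a1 were the 2 genes called in the whole table, of which DESeq2 and limma-voom each called at most 1. Dcn and Cyp17a1 also made up most of the difference between groups in the sums of their lists. Dcn varied between the 2 deleted libraries, with an SD of 5.56 CPM. These sums moved beside the values of Hoxb7, Hoxc9 and Hoxd8, and their part in those values was not tested. The remaining somatic lists overlapped between control and deleted libraries: Sertoli markers at 148 to 149 and 141 to 155 CPM, myoid at 72.3 to 73.2 and 64.9 to 74.0 CPM, endothelial at 33.6 to 34.3 and 32.6 to 37.7 CPM, and macrophage at 49.4 to 58.4 and 46.6 to 91.1 CPM. Only 3 of 7 myoid and 3 of 6 endothelial markers were detected. Actg2, at 52.3 CPM in control libraries, made up most of the myoid sum, and Egfl7, at 30.1 CPM, most of the endothelial sum.

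In the 23KRA experiment 0 markers of any list were called by edgeR, and every list overlapped between genotypes. Macrophage and leukocyte markers ran from 8.24 to 129 CPM in wild-type and from 16.7 to 36.5 CPM in homozygous libraries. Fibroblast markers ran from 7.64 to 21.6 and 11.8 to 14 CPM, with Lum and Tcf21 at 0 throughout, and Leydig markers from 15.1 to 23.3 and 12.4 to 19.9 CPM. Sertoli markers ran from 45.7 to 84.7 and 41.3 to 78.9 CPM, with Fshr at 0, myoid markers from 63.6 to 102 and 64.4 to 89.2 CPM, and endothelial markers from 12.7 to 21.0 and 9.59 to 20.4 CPM. Their part in the spread of Hox values between libraries was not tested.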

How the data were processed

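RNA sequencing reads of 14 libraries were counted per gene by the authors, and the deposited values are raw read counts with no normalization, in 1 table per experiment. The submitters' processing notes list mm10 and, in no stated order, STAR 2.5.3, featureCounts, Subread 1.5.0, SAMtools 1.4.1 and Trim Galore 0.4.3. Not given in the sources used here are the annotation, whether counting used strand, and how multiply mapped reads were handled. The labels' protocols name a SMART-Seq mRNA kit with poly(A) selection for the deletion and a SMARTer stranded total RNA kit with ribosomal cDNA depletion for 23KRA, although the molecule label says polyA for both. Levels were therefore compared within each table.

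Each table was fitted alone in R 4.3.3 with edgeR 4.0.16: filterByExpr, TMM scaling, a two-sided quasi-likelihood F test by group, and Benjamini-Hochberg adjustment over all genes tested, called at 0.05. CPM used the TMM-scaled library sizes. The SE is the size of the log2 fold change divided by the square root of F. Single values were tested by exact permutation of log2(CPM + 0.5). The fits were tested on simulated data. Lengths are the union of exons in GENCODE M21 (GRCm38). Alternatives were DESeq2 1.42.0, limma-voom 3.58.1, other scalings, filters and detection thresholds, a replicate block and leaving out each library. Named genes are every detected Hox gene, of which 1 is not reported here, with values per library for the 5 of highest mean CPM in each table, and in each other list up to 4 called members or else the 2 of highest mean CPM. Gene positions and homeobox sequences were found for all 39 members, and promoters were not used here. Members and lists were chosen with earlier results of these data known.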

Additional observations from a re-analysis of the deposited data

How the results depend on the processing

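No Hox gene was called in either experiment under any alternative run: other scalings, no filter, DESeq2, limma-voom, a replicate block, the loss of each library in turn, and, chosen after the data had been seen, 23KRA without wild type 2 and 3. Over the whole table of the deletion experiment, 2 genes were called, and the count was 8 with no filter, 1 by DESeq2, 1 by limma-voom, and 2 to 73 without each library in turn (73 without deleted 2 and 11 without control 1); the cause was not tested. The unadjusted p of Hoxb7 and Hoxc9 in the deletion missed 0.05 for both genes by DESeq2, without control 2 and without deleted 2, and for Hoxc9 also without deleted 1. The replicate number was used as a block although same-numbered libraries were not shown to be paired: the correlation of their deviations was 0.161 in the deletion experiment, with only 2 pairs, and from -0.011 to 0.224 in 23KRA, where 3 of 5 pairs matched their own number best. With the replicate block the deletion gave 62 called genes and 23KRA gave 2. The median log2 fold change of the tested Hox genes in the deletion, -0.028, was 0.024 by limma-voom, 0.023 with the replicate block, and -0.10 to 0.027 without each library. In 23KRA that median, -0.44, was -0.68 to 0.28 without each library, above 0 only without wild type 1. Detection depended on the threshold: 13 Hox genes in the deletion and 9 in 23KRA at 0.5 CPM, and 3 in the deletion at 2 CPM. In 23KRA 2 were detected when every library of a group had to reach 1 CPM, and 4 to 10 without each library in turn, where by construction 2 of 4 libraries sufficed. Among single genes, the range without each library crossed 0 for Hoxa3 in the deletion (-0.11 to 0.88), Hoxb13 in the deletion (-0.068 to 0.48), Hoxd8 in 23KRA (-1.02 to 0.36) and Hoxb7 in 23KRA (-0.039 to 1.27). With 46 to 83 counts a library for Hoxb7 in the deletion and 0 to 195 counts for the detected genes in 23KRA, counting error alone was wide.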
